A study of Oryctolagus cuniculus with 4 samples.

Results

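The genes that attach epithelium to its basement membrane were followed in single-cell RNA sequencing of the rabbit bladder, namely LAMA3 (ENSOCUG00000009869), LAMB3 (ENSOCUG00000004013), ITGA2 (ENSOCUG00000011387), ITGA3 (ENSOCUG00000009990), ITGA6 (ENSOCUG00000000403) and DST (ENSOCUG00000014074). They are 6 of the 18475 gene rows of the deposited tables and were picked by symbol, and each symbol had 1 row. Their levels per cell type and sub-cluster were known when they were picked, so levels across cells are given as a description without a test. The comparison of injured with normal samples is read from a fit over all genes, and since earlier results of these data were known, its p-values for these genes are not independent evidence. Droplet-based 3′ libraries came from Oryctolagus cuniculus, with 2 injured samples (Injury_1 and Injury_2) and 2 normal samples (Normal_1 and Normal_2), and 1 library per sample. The injured bladders of adult New Zealand rabbits were taken on day 10 after removal of the full mucosa within a focal wound, when new urothelium had only just closed over the wound. The normal samples were bladder mucosa at homeostasis, and the labels name no genetic change or drug for either group. The sex of the rabbits is not given in the sources used here, and the injured tissue could hold both new and neighbouring urothelium.

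LAMA3 and LAMB3 encode the alpha and beta chains of the laminin that epithelia lay down in their basement membrane. Integrins are pairs of an alpha and a beta chain that span the membrane: the ITGA3 and ITGA6 products bind laminins, the ITGA2 product binds collagen and also laminin, and the ITGA6 chain joined to the ITGB4 chain forms the core of the hemidesmosome. Dystonin, from DST, exists in an epithelial form that ties keratin filaments to the hemidesmosome and in longer neuronal and muscle forms that link the cytoskeleton elsewhere. In urothelium, as in skin, these proteins anchor the basal layer, while umbrella cells at the lumen carry uroplakins. The study took KRT5 and TP63 as basal markers. In normal rabbit urothelium it found Krt5 in scattered basal cells and p63 in intermediate as well as basal cells.

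The 4 libraries held 5823 to 6884 barcodes and 28745017 to 47881609 UMIs, each UMI standing for 1 captured RNA molecule, and 4308 to 6081 cells per sample were kept. Normal_1 was the shallowest library, with a median of 4813.5 UMIs per kept cell against 6755 to 7186 in the others, and 23.8% of its barcodes were over the limit of 15% mitochondrial UMIs against 9.66% to 12.4%. Any 2 libraries shared between 8 and 13 barcodes. Cells fell into 10 named classes, and "-like" marks that a class was named from marker genes. The epithelial-like class had 566 and 354 cells in Injury_1 and Injury_2, and 441 and 171 in Normal_1 and Normal_2. Of the 10 epithelial markers, 7 had a row, and their summed level in these cells was at least 4299 CPM, where CPM is the gene's UMI count scaled to the same total of UMIs in every class and sample. Over all kept cells there were 1877 UMIs of LAMA3, 2658 of LAMB3, 5784 of ITGA2, 180 of ITGA3, 20230 of ITGA6 and 64876 of DST.

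The 2 laminin chains had different ranges across the bladder wall. LAMB3 was at 145 ± 157 CPM (mean ± SD, n = 4 samples) in epithelial-like cells, and the next class, neutrophil-like, had 14.4 ± 12.6 CPM from 46 UMIs. The classes overlapped, since the injured epithelial-like values of 24.3 and 16.4 CPM lay within the neutrophil-like range of 0 to 29.2. The epithelial-like cells held 96.6% of all LAMB3 UMIs in Normal_1 (95% Wilson interval 95.3% to 97.5%, counting error only) and 90.1% in Normal_2 (88.3% to 91.7%), but 66.9% in Injury_1 (61% to 72.3%) and 55.4% in Injury_2 (47.8% to 62.8%). LAMA3 was at 78.8 ± 96 CPM in epithelial-like cells and at 51 ± 23 CPM in smooth muscle and pericyte-like cells, and the values of both classes overlapped. Endothelial-like cells followed with 3.3 ± 1.58 CPM, and the glial-like value of 5.22 CPM came from 1 UMI in 1 sample. The smooth muscle and pericyte-like class held 54.8% and 66.4% of the LAMA3 UMIs of Injury_1 and Injury_2 and 21.2% and 10.3% of those of Normal_1 and Normal_2, against 3.42%, 3.61%, 0.659% and 1.11% of the LAMB3 UMIs. Within that class, the cluster led by RERGL, SNCG and MYH11 had 49.6 and 95.5 CPM of LAMA3 in Injury_1 and Injury_2, against 118 and 61.9 in Normal_1 and Normal_2. The cluster led by IBSP, RGS5 and RGS4 had 36.3, 46.8, 47.3 and 18.7 CPM in the same order. In both clusters the injured and normal samples overlapped. Among endothelial-like cells, the cluster led by ATP2A3, BMX and TM4SF1 had 16, 38.4, 10.6 and 13.1 CPM of LAMA3 in this order, while the cluster led by SELP and SELE stayed between 1.04 and 1.67 CPM.

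**Figure D1:**
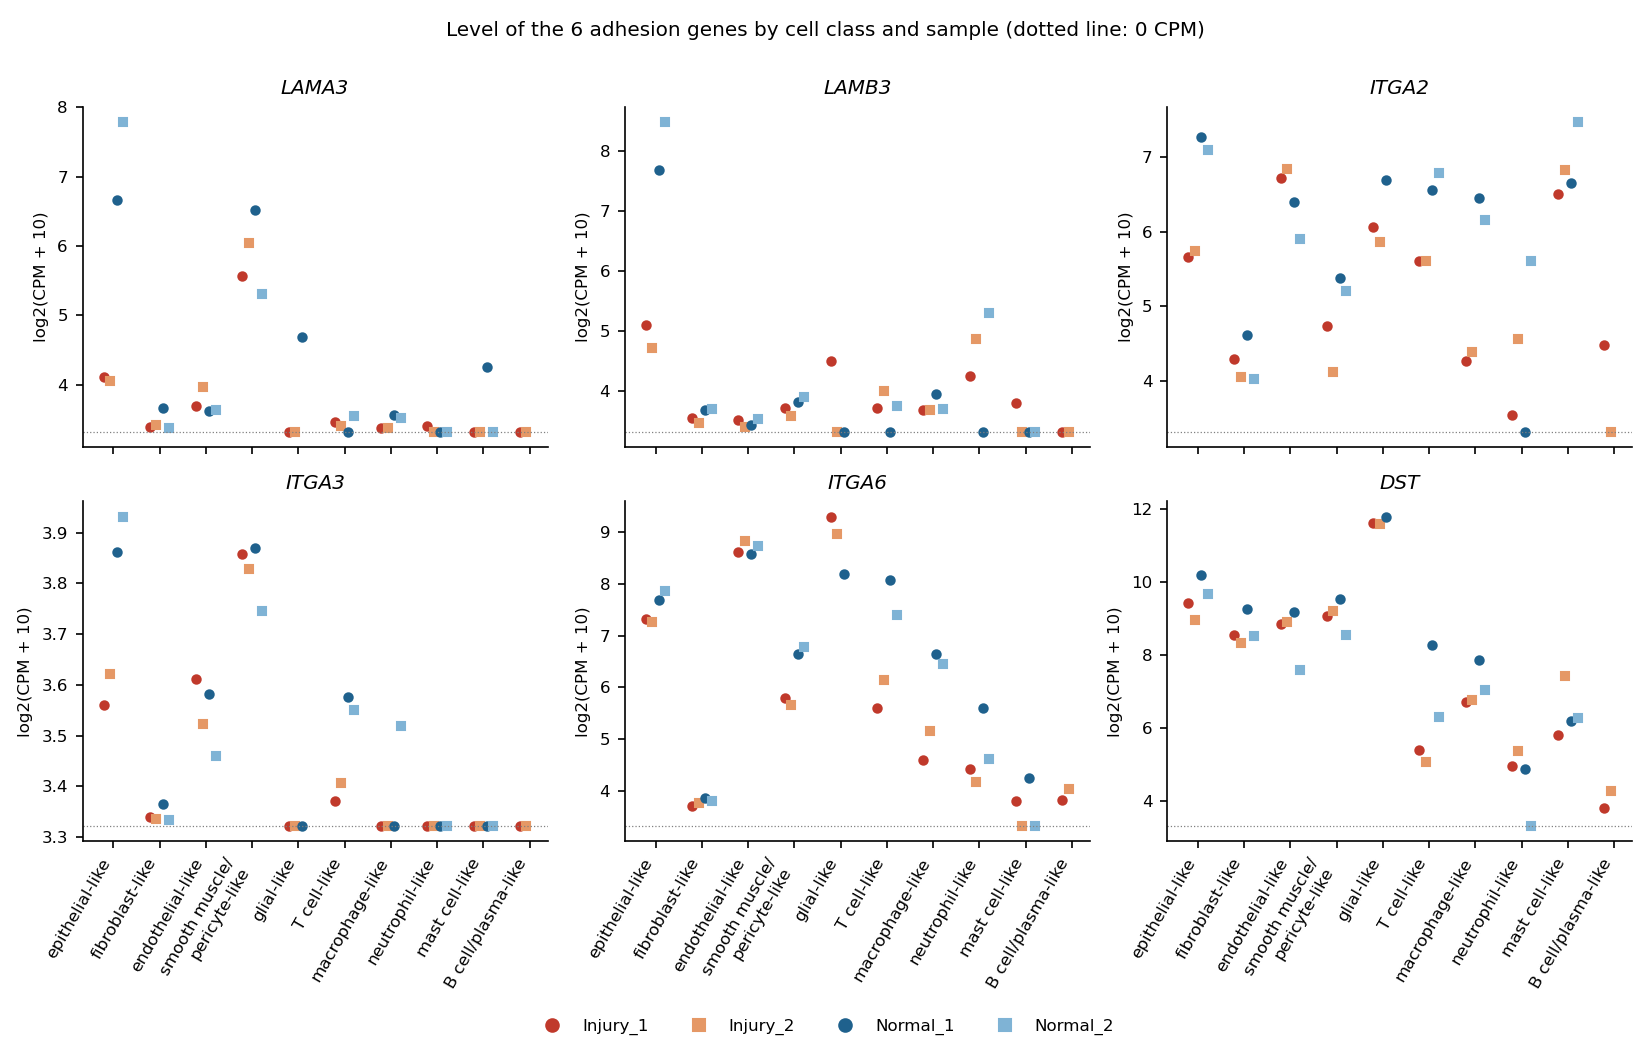
Level of each of the 6 genes, as log2(CPM + 10) on the vertical axis, in the 10 named cell classes on the horizontal axis, with 1 point per sample that had at least 20 cells of the class. In the normal samples LAMB3 stands above the other classes in epithelial-like cells, and its injured epithelial-like points lie among the neutrophil-like ones; DST stands above the other classes in glial-like cells, and ITGA3 stays near the dotted line of 0 CPM everywhere.

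The integrin alpha chains were spread over more classes. ITGA6 was highest in glial-like cells, at 464 ± 170 CPM (n = 3 samples with at least 20 cells), and in endothelial-like cells, at 405 ± 34 CPM (n = 4). These 2 classes overlapped, and epithelial-like cells followed with 179 ± 37.7 CPM. Because endothelial-like cells were numerous, they held 70.2% ± 6.16 of all ITGA6 UMIs and the epithelial-like cells 18.5% ± 5.43. Fibroblast-like cells, the largest class, had only 3.77 ± 0.606 CPM. ITGA2 was at 111 ± 38.8 CPM in mast cell-like cells, at 88.8 ± 54.3 in epithelial-like cells and at 81.2 ± 24.4 in endothelial-like cells, and the ranges of these 3 classes overlapped. The mast cell-like value rests on 73 UMIs in 227 cells. Glial-like and T cell-like cells followed with 66.4 ± 24.3 and 65.9 ± 31.9 CPM, and fibroblast-like cells had 9.27 ± 3.83.

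ITGA3, whose product is the alpha chain of a laminin receptor of many epithelia, was close to the limit of detection. It reached 4.19 ± 0.549 CPM in smooth muscle and pericyte-like cells and 3.48 ± 1.69 CPM in epithelial-like cells, with overlapping values, and it had 0 UMIs in glial-like, mast cell-like, neutrophil-like and B cell and plasma-like cells. DST was highest in glial-like cells, with 3142 CPM in Injury_1, 3055 in Injury_2 and 3542 in Normal_1. No sample of any other class came near these values, since the next class, epithelial-like, had 785 ± 282 CPM and at most 1162. Smooth muscle and pericyte-like cells followed with 555 ± 153, endothelial-like cells with 420 ± 166 and fibroblast-like cells with 410 ± 134 CPM, and these values overlapped with each other. Counts from the 3′ end do not tell the epithelial form of DST from its other forms.

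Injured and normal bladders were then compared in each class, to ask whether the genes of basement membrane attachment differed once the wound had been covered. UMIs were summed per sample and class, and a quasi-likelihood fit in edgeR was run over all genes, with p-values adjusted by the Benjamini-Hochberg method and a threshold of 0.05. In bulk sums of this kind, fewer cells that express a gene and less RNA per cell cannot be told apart, so the class was also split as described further on. The study calls the samples of a group biological replicates, and the labels do not tie them to separate animals, so the p-values measure the spread between these samples.

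In epithelial-like cells, LAMA3, LAMB3 and ITGA2 fell after injury and no member rose. LAMA3 was at 7.31 CPM in Injury_1 and 6.59 in Injury_2, against 91.6 in Normal_1 and 210 in Normal_2. Both injured samples lay far below both normal ones, and the normal samples differed from each other more than the injured ones did. The log2 fold change of injury against normal was -4.74 ± 0.552 (SE), with an adjusted p of 0.0284 in edgeR, and the mean of the normal samples was 21.7 times that of the injured ones. LAMB3, the partner chain, was at 24.3 and 16.4 CPM in Injury_1 and Injury_2 against 195 and 346 in Normal_1 and Normal_2. The groups again did not overlap, with a log2 fold change of -4.03 ± 0.452 and an adjusted p of 0.0273 in edgeR. ITGA2 was at 40.8 and 43.4 CPM in the injured and at 144 and 127 CPM in the normal samples. Its fold change was smaller than that of the laminin chains and its replicates were closer together (log2 fold change -1.93 ± 0.219, adjusted p of 0.0273 in edgeR). ITGA2 lost the call without Injury_1 (adjusted p of 0.17 in edgeR) and without Injury_2 (0.0976), and the laminin chains still passed without each sample in turn. In such fits 1 group is a single library, which is assumed to vary like the other group.

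The other 3 members did not pass the test in this class. DST was at 680 and 493 CPM in the injured and at 1162 and 805 in the normal samples (log2 fold change -0.986 ± 0.269, adjusted p of 0.127 in edgeR). ITGA6, the hemidesmosomal alpha chain, was at 150 and 144 CPM against 196 and 223 (-0.775 ± 0.251, adjusted p of 0.17). ITGA3 was at 1.79 and 2.31 CPM against 4.55 and 5.26 (-1.49 ± 0.468, adjusted p of 0.158). In all 6 members both injured samples were below both normal samples, which was so for 15.5% of the 7046 genes tested in epithelial-like cells. The test called 117 genes, or 1.66% of those tested, and 1.04% as lower in injury, and 3 of the 6 members were among the latter. Nothing is read from these shares, because the members were chosen with results of these data known.

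**Figure D2:**
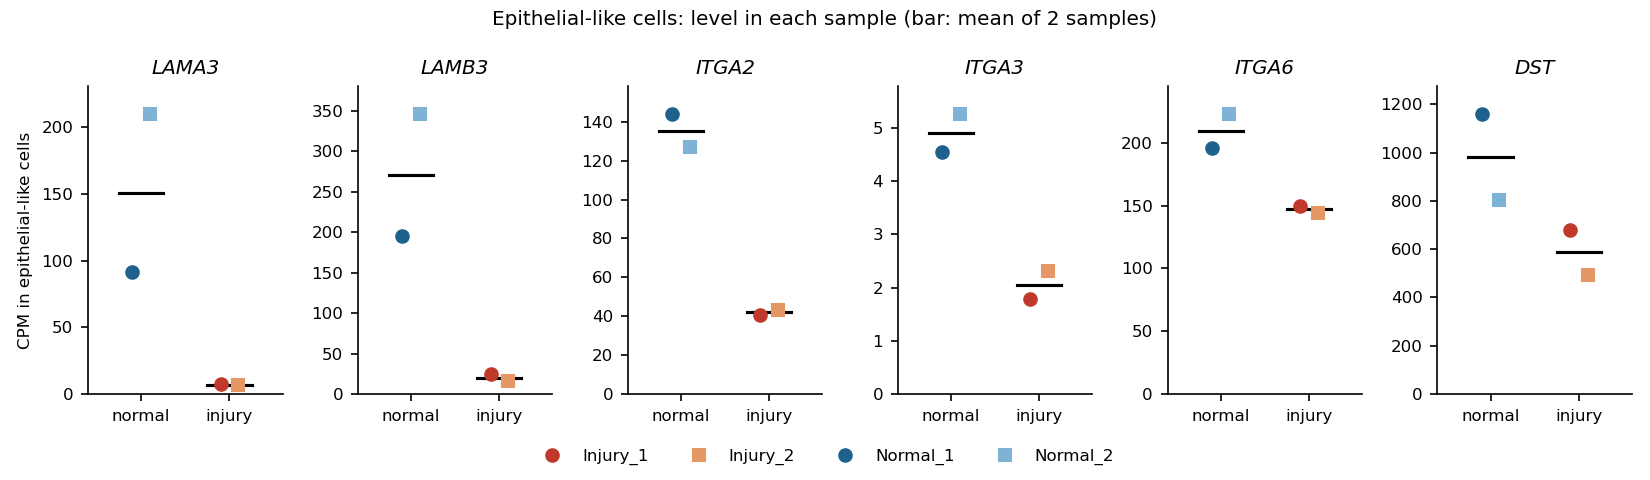
CPM of each of the 6 genes in epithelial-like cells, with 1 point per sample, normal samples on the left and injured samples on the right of each panel, and a bar at the mean of the 2 samples. Both injured points lie below both normal points in every panel, by a wide margin for LAMA3 and LAMB3 and by a narrow one for ITGA6 and DST.

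The fall could be seen as a share of cells as well. A LAMB3 UMI was found in 9.54% of epithelial-like cells of Injury_1 and 16.4% of Injury_2, against 39.7% of Normal_1 and 64.9% of Normal_2. With each cell reduced to 1000 UMIs, which left out 17, 8, 25 and 9 cells in the same order, the shares became 1.52%, 1.43%, 13.8% and 23.5%. Endothelial-like cells, taken as a class low in LAMB3, gave 0.0437% to 0.163% after the same reduction and 0.228% to 1.2% before it. The median depth of the endothelial-like cells was 4655 to 6406 UMIs, against 11932 to 19902 in epithelial-like cells. For LAMA3 the shares at 1000 UMIs were 0.638% and 0.685% in the injured and 6.98% and 16.7% in the normal samples, from 6.71%, 8.47%, 31.5% and 63.7% unreduced. Endothelial-like cells gave 0.206% to 0.429% for LAMA3. Injured epithelial-like cells were above the endothelial-like shares for both chains, and the injured and normal shares did not overlap.

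Some properties of the epithelial-like class moved with the groups. Its median mitochondrial share was 8.14% and 9.24% in the injured and 10.2% and 10.7% in the normal samples. With a limit of 10% mitochondrial UMIs, LAMA3 and LAMB3 still passed and ITGA2 did not (adjusted p of 0.06 in edgeR). The summed level of the 2 uroplakin genes with a row, UPK1B and UPK3B, was 275 and 87.6 CPM in the injured and 53.7 and 14.8 CPM in the normal samples. The 5 neutrophil markers with a row, of 6 listed, summed to 218 and 786 CPM against 33 and 69.1, where neutrophil-like cells had at least 84498. Leaving out the sub-clusters that carried markers of other classes, few UMIs or proliferation genes kept the same 3 members past the threshold. The fibroblast marker sum overlapped between the groups, with 1570 and 2373 CPM in the injured and 202 and 2649 in the normal samples. The part of these properties in the result was not otherwise tested.

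The epithelial-like class was split in 2 ways to see where the members lay. Clustering these cells again gave 9 sub-clusters, of which 4 were kept, and all members but ITGA3 were among the genes used, so the differences between sub-clusters are a description. The sub-cluster with the highest KRT5, sub-cluster 4, was led by KRT5, PTHLH, ITGA2 and LAMB3. It held 38 cells of Injury_1, 26 of Injury_2 and 118 of Normal_1, and with only 9 cells Normal_2 was left out of its values. Against the other epithelial-like cells of the same sample, the log2(CPM + 10) in sub-cluster 4 was higher by 2.36 ± 0.467 for LAMB3 (mean ± SD, n = 3 samples), by 2.02 ± 0.478 for LAMA3 and by 1.87 ± 0.574 for ITGA2. ITGA6 was higher by 0.945 ± 0.0495 and ITGA3 by 0.378 ± 0.117. DST had no common direction, with differences of 0.567 in Injury_1, 0.976 in Injury_2 and -0.157 in Normal_1. With the 6 genes removed before clustering, the differences were 1.79 for LAMB3 and 1.53 for LAMA3. With cells that had a KRT5 UMI and no uroplakin UMI in place of the sub-cluster, they were 1.62 and 1.38. Both alternatives took in Normal_2, with 10 and 58 cells, so their samples were not the same as those of the main values.

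Sub-cluster 1 was the other sub-cluster with high LAMA3 and LAMB3 in its normal cells, and its leading genes were F3, INSL5, GLNB2, PLAU, LAMB3 and LAMA3. It held 106, 76, 67 and 74 cells of Injury_1, Injury_2, Normal_1 and Normal_2, so every sample could be used. LAMB3 was at 6.81 and 8.86 CPM in its injured cells and at 257 and 501 CPM in its normal cells. LAMA3 was at 2.92 and 1.27 CPM against 81.4 and 301. ITGA2 was at 33.6 and 31.7 CPM against 156 and 170. The injured and normal samples did not overlap for these 3 genes. ITGA6 was at 158 and 141 CPM against 254 and 245, and DST at 746 and 573 against 986 and 897. The cells of this sub-cluster were not alike between the groups in other genes: UPK3B was at 100 and 33.6 CPM in the injured and at 10.2 and 2.61 in the normal samples, and KRT5 at 29.7 and 108 against 165 and 157. An edgeR fit on sub-cluster 1 alone, added after the data had been seen, called 4 members as lower, beside 3.67% of the 5203 genes tested. Most members were among the clustering genes, and LAMA3 had 6 and 2 UMIs in the injured against 88 and 461 in the normal cells, so it entered the fit through the normal samples. The values are therefore a description, and no p-value is given for them.

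In sub-cluster 4 the injured samples kept part of the signal. LAMB3 was at 146 CPM in Injury_1 and 76.6 in Injury_2 against 434 in Normal_1, LAMA3 at 33.3 and 41.4 against 231, and ITGA2 at 139 and 106 against 348. ITGA6, at 282 and 261 CPM against 297, and DST, at 966 and 904 against 1075, were close between injured and normal cells. COL17A1, which encodes a transmembrane collagen of the hemidesmosome, was at 4.17 and 6.21 CPM in the injured and 6.95 in the normal sample. The single normal value gives no spread for these comparisons. In the remaining kept sub-clusters the laminin chains were low. Sub-cluster 0, led by RNF39, FAM13A and NR4A3, had 3.7 to 26.2 CPM of LAMA3 and 1.36 to 31.5 of LAMB3, and sub-cluster 3, led by UPK1B, PPP1R3C and KRT12, had 3.11 to 25.2 and 0.777 to 16.8. In both, Normal_2 with 19 cells gave the highest value. ITGA2 ran the other way in sub-cluster 0, with 38.5 and 50.7 CPM in the injured and 8.87 and 34.1 in the normal samples. In sub-cluster 3 it was at 5.44 and 4.45 against 2.14 and 4.2 CPM, a low level that rests on few UMIs.

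**Figure D3:**
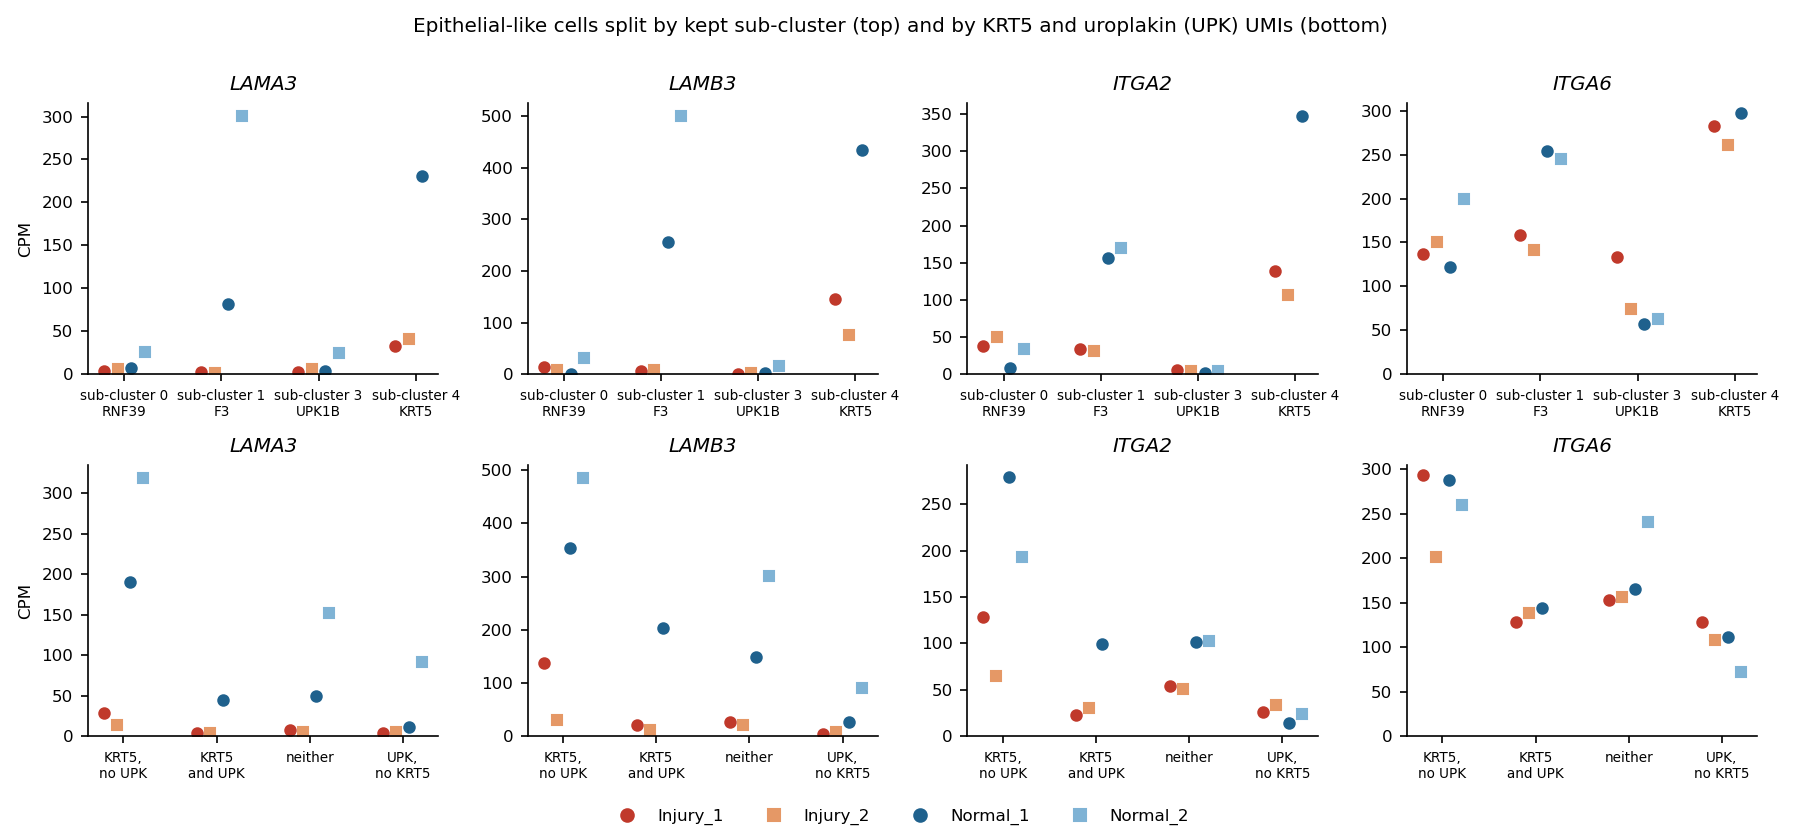
CPM of LAMA3, LAMB3, ITGA2 and ITGA6 in epithelial-like cells, with 1 point per sample that had at least 10 cells; the top row splits the cells into the 4 kept sub-clusters with their leading gene, and the bottom row splits them by whether a KRT5 UMI or a uroplakin (UPK) UMI was found. Injured points for LAMA3 and LAMB3 lie below the normal ones in sub-clusters 1 and 4 and in all 4 groups of the bottom row, whereas ITGA2 is higher in both injured samples than in both normal ones in sub-cluster 0, in sub-cluster 3 and in cells with uroplakin alone. The ITGA2 order rests on few UMIs in sub-cluster 3 and on few normal cells with an ITGA2 UMI among those with uroplakin alone. Sub-cluster 4 and the cells with both KRT5 and uroplakin have Normal_1 as their only normal point, the latter from 14 cells.

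The second split used only the UMIs of KRT5 and of the uroplakins UPK1B and UPK3B, and not the members. Cells with KRT5 and no uroplakin made up 8.13% and 18.4% of the epithelial-like cells in the injured and 32.9% and 33.9% in the normal samples. Cells with uroplakin and no KRT5 made up 69.3% and 40.4% against 27% and 14.6%, so the makeup of the class differed between the groups. Among cells with KRT5 and no uroplakin, LAMA3 was at 28.8 and 13.5 CPM in the injured and at 190 and 319 in the normal samples. LAMB3 was at 137 and 31.2 CPM against 354 and 486, and ITGA2 at 129 and 65 CPM against 279 and 193. No injured sample reached a normal one for these 3 genes. In edgeR on these cells alone, also added after the data had been seen, LAMA3 passed (log2 fold change -3.94 ± 0.459, adjusted p of 0.0384) and LAMB3 and ITGA2 did not (-2.69 ± 0.611 and -1.61 ± 0.351, adjusted p of 0.0793 and 0.0748). Of the 4892 genes tested, 0.552% were called as lower. ITGA6 overlapped between the groups there, with 294 and 202 CPM against 288 and 260.

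Outside the cells with KRT5 alone, the laminin chains were also lower after injury. In cells with neither marker, LAMB3 was at 26.3 and 21.2 CPM in the injured and at 149 and 301 in the normal samples, and LAMA3 at 7.9 and 5.71 against 49.9 and 152. In cells with uroplakin and no KRT5, LAMB3 was at 3.8 and 7.66 CPM against 26.9 and 91.6, and LAMA3 at 3.8 and 4.79 against 11 and 91.6. The normal LAMB3 values rest on 5 cells in each sample, and the shares of cells with a LAMB3 UMI overlapped, at 3.57% and 10.5% in the injured against 4.2% and 20% in the normal samples. ITGA2 in these uroplakin cells was at 26 and 33.5 CPM in the injured and 14.5 and 24.1 in the normal samples, which is the opposite order. The normal ITGA2 values rest on 21 UMIs in 10 cells of Normal_1 and 10 UMIs in 5 cells of Normal_2. The shares of cells with an ITGA2 UMI overlapped, at 18.6% and 26.6% in the injured against 8.4% and 20% in the normal samples. Leaving out sub-cluster 4 altogether left no gene past the threshold in edgeR, with 1123 of 6790 genes at an unadjusted p under 0.05. The log2 fold changes were then -5.23 for LAMA3 (adjusted p of 0.107), -4.62 for LAMB3 (0.0904) and -1.65 for ITGA2 (0.196), so the direction stayed and the call was lost.

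In the 3 other classes that were tested, no member passed. In fibroblast-like, endothelial-like and smooth muscle and pericyte-like cells edgeR called 0 of 8829, 7510 and 6501 genes, or 0% in each. Unadjusted p-values under 0.05 were given to 952, 522 and 629 genes, and DESeq2 called 262, 55 and 72 genes but no member. ITGA6 in smooth muscle and pericyte-like cells came closest, with 45.1 and 40.8 CPM in the injured and 89.5 and 99.5 in the normal samples. The groups did not overlap (log2 fold change -1.12 ± 0.225, adjusted p of 0.26 in edgeR). It passed without Normal_1 (0.00417), without Normal_2 (0.00847), without the filter on low counts (0.0464) and with at most 10% mitochondrial UMIs (0.0459), whereas its log2 fold change was -0.0634 when the classes came from clustering without integration. The cluster led by IBSP and RGS5 carried the difference, with 49.4 and 45.9 CPM in the injured and 130 and 151 in the normal samples, while the cluster led by RERGL had 42.1 and 41.6 against 52.9 and 37.9. ITGA2 in this class was at 16.7 and 7.45 CPM against 31.7 and 26.9 (-1.26 ± 0.412, adjusted p of 0.443), and LAMA3, at 37.5 and 55.7 against 81.4 and 29.5, overlapped. Both injured samples were below both normal ones for 3 of 6 members here, beside 21.1% of all genes tested, and for 2 of 5 tested members in fibroblast-like cells, beside 27.9%.

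In endothelial-like cells ITGA2 had the opposite order, at 96 and 105 CPM in the injured and 74.2 and 50.1 in the normal samples (log2 fold change 0.619 ± 0.225, adjusted p of 0.692 in edgeR). ITGA6, at 381 and 446 against 373 and 418 CPM, overlapped and had a log2 fold change of -0.0344 ± 0.243. LAMA3 and ITGA2 were the 2 of 6 members that were higher in both injured samples, beside 24.4% of all genes tested. DST overlapped in fibroblast-like, endothelial-like and smooth muscle and pericyte-like cells, and in endothelial-like cells Normal_2 alone, at 184 CPM, stood apart from 453 to 571 in the other samples.

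**Figure D4:**
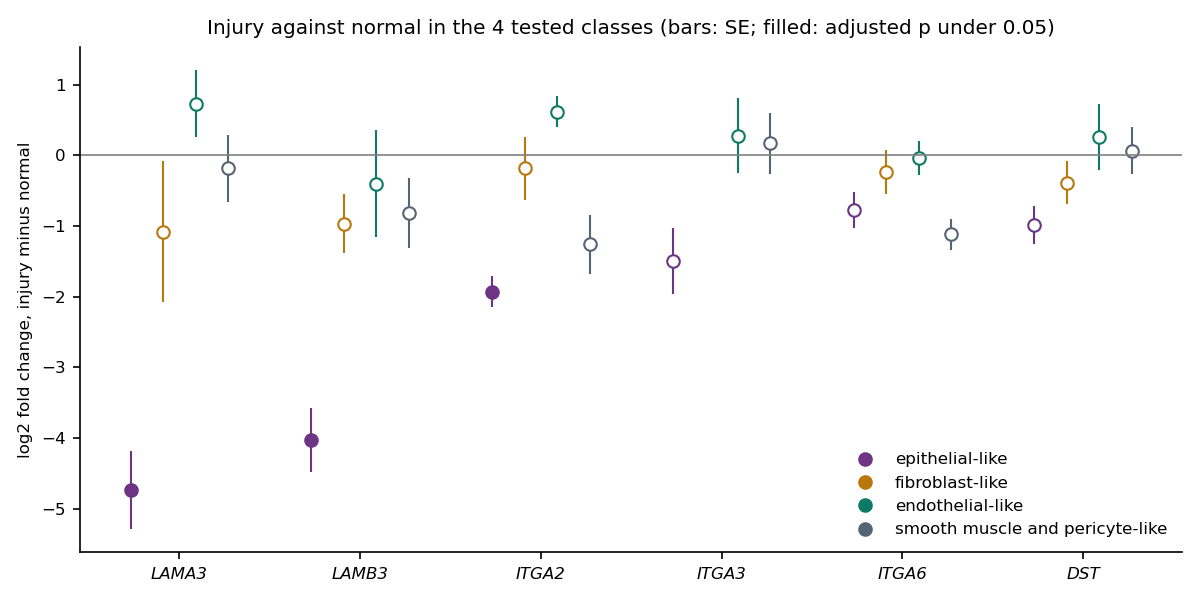
Log2 fold change of injury against normal for the 6 genes in the 4 tested classes, with bars for the SE and filled points for an adjusted p under 0.05 in edgeR. The filled points are LAMA3, LAMB3 and ITGA2 in epithelial-like cells, and ITGA3 was not tested in fibroblast-like cells.

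Whether the epithelial change differed from that of the other classes was tested in 1 fit per pair of classes with the sample as a term, also added after the data had been seen. Compared with endothelial-like cells, the epithelial log2 fold change was lower by 5.25 ± 0.54 for LAMA3 (adjusted p of 0.0325 in edgeR), by 2.51 ± 0.276 for ITGA2 (0.0339) and by 3.59 ± 0.492 for LAMB3 (0.0499), where 0.355% of 8172 genes passed. Compared with smooth muscle and pericyte-like cells, it was lower by 3.2 ± 0.486 for LAMB3 (0.0282) and by 4.41 ± 0.841 for LAMA3 (0.0474), where 1.81% of 7463 genes passed. ITGA2 did not differ past the threshold between these 2 classes (difference -0.605 ± 0.429, adjusted p of 0.49). Compared with fibroblast-like cells, LAMB3 passed with a difference of -3.03 ± 0.402 (0.0244), where 1.36% of 8395 genes passed, and LAMA3 and ITGA2 did not (-3.86 ± 1.33 and -1.76 ± 0.46, adjusted p of 0.218 and 0.119). LAMA3 and LAMB3 were near or under 3 CPM in fibroblast-like cells, and LAMB3 was under 2 CPM in endothelial-like cells, from 3 to 19 UMIs per sample. LAMA3 was at 2.29 to 5.64 CPM in endothelial-like cells, and LAMB3 at 1.94 to 4.92 CPM in smooth muscle and pericyte-like cells. Where the other class was this low, the difference rests on the epithelial-like values and is a description. No difference for ITGA3, ITGA6 or DST passed in any pair.

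Among the partner genes that form complexes with these products, ITGB1, ITGB4, PLEC and CD151 had no row under that symbol and were not analysed here. COL17A1 had a row, at 1.22 ± 0.96 CPM in epithelial-like cells, and it was too low to be tested. The wider adhesion genes were read from the same epithelial fit. Of the other basement membrane genes, 11 of 15 were tested, and 3 fell, 0 rose and 8 did not pass, with a median log2 fold change of -1.77 beside -0.00394 over all genes. COL4A4 and COL4A1, chains of basement membrane collagen, were at 2.62 and 1.78 CPM against 19.3 and 28.3 (-3.68 ± 0.447, adjusted p of 0.0304 in edgeR) and at 2.62 and 4.09 CPM against 18.8 and 21.7 (-2.85 ± 0.417, 0.0425). NID1, a linker of laminin and collagen, was at 0.414 and 0.89 CPM against 8.53 and 7.56 (-3.86 ± 0.545, 0.0403). Both injured values of NID1 and the Injury_2 value of COL4A4 lay under the low-count limit. These genes therefore entered the fit through the normal samples, where they are high, and their calls are a description. The level of NID1 was higher in fibroblast-like cells, at 115 ± 32.2 CPM, and COL4A1 was highest in smooth muscle and pericyte-like cells, at 529 ± 180 CPM. COL4A1 was also among the leading genes of epithelial sub-cluster 7, led by VWF, in which 48.1% of cells had top doublet scores. That sub-cluster held 4 and 7 cells of Injury_1 and Injury_2 and 6 and 10 of Normal_1 and Normal_2. Its part in the COL4A1 values was not tested.

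Of 17 other integrin chains, 5 were tested, and 1 fell and 0 rose, with a median log2 fold change of -1.11. This was ITGB6, an integrin beta chain largely of epithelia, at 5.1 and 2.85 CPM against 33.9 and 21.7 (-3.03 ± 0.379, adjusted p of 0.0324 in edgeR). ITGAV, its alpha partner, was at 95.6 and 68.5 CPM against 148 and 201 and did not pass (-1.37 ± 0.315, 0.0915). Of 14 focal adhesion genes, 11 were tested, and 1 fell and 0 rose, with a median of -0.685. This was PXN, which encodes the adaptor paxillin, at 5.66 and 4.45 CPM against 23.1 and 17.4 (-2.24 ± 0.318, 0.0403). The other laminin chains did not pass, with 4 of 10 tested and a median of -0.165. LAMB1, a beta chain of other laminin trimers, was at 269 and 254 CPM in the injured against 217 and 227 in the normal samples and did not pass (-0.0252 ± 0.238, adjusted p of 0.969). The sign differs from that of the CPM because the fit rescales the libraries with TMM factors and CPM does not. KRT5, the tested gene of 6 in the hemidesmosome list, overlapped between the groups, at 64.8 and 175 CPM against 183 and 116 (adjusted p of 0.593), and DAG1, the tested gene of 3 other laminin receptors, did not pass (0.318). In the other 3 classes no gene of these lists was called.

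**Figure D5:**
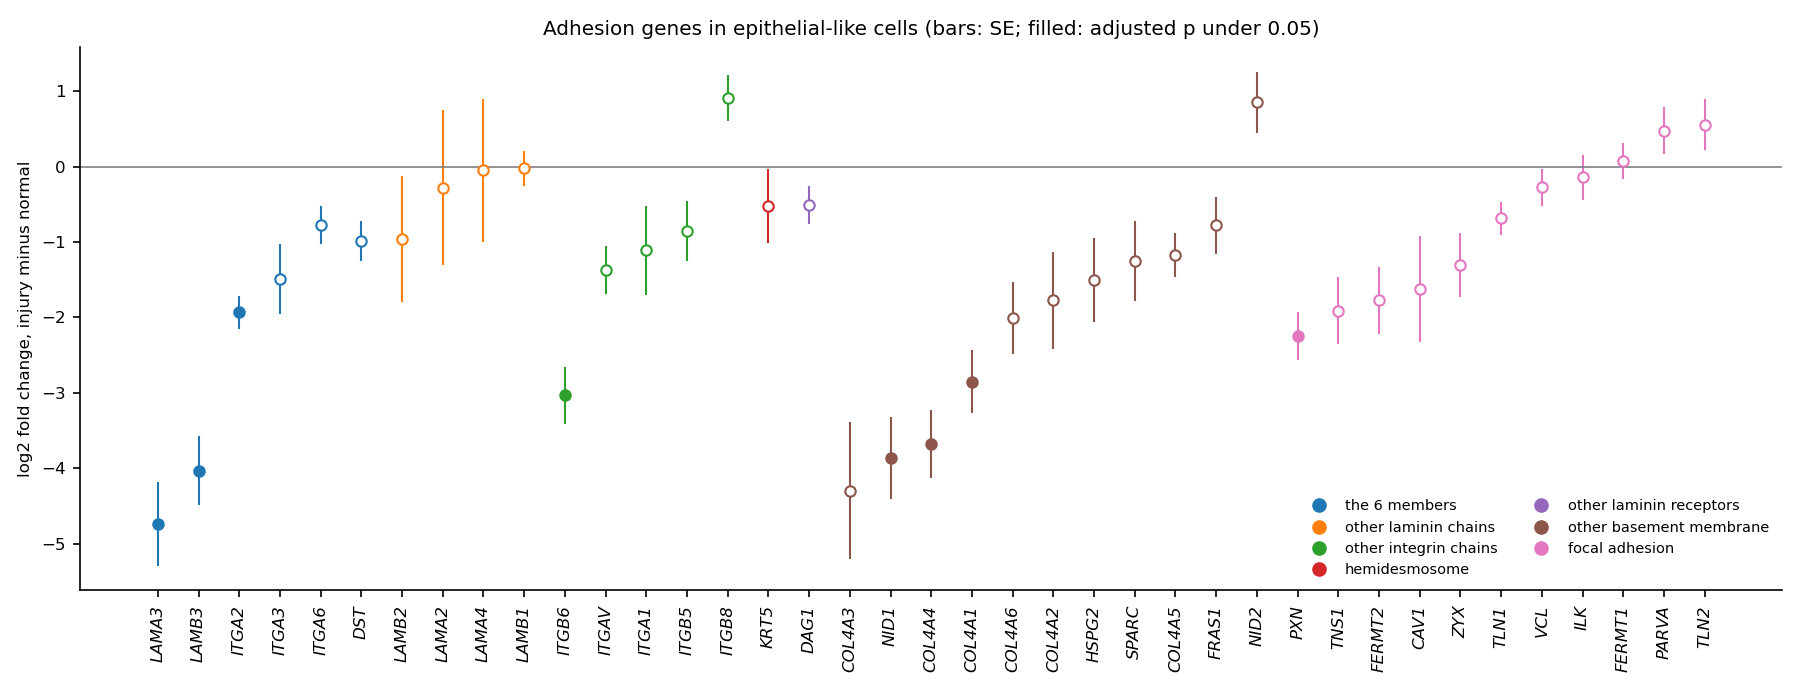
Log2 fold change of injury against normal in epithelial-like cells for the 6 genes and the tested genes of the adhesion lists, coloured by list, with bars for the SE and filled points for an adjusted p under 0.05 in edgeR. The filled points, LAMA3, LAMB3, ITGA2, ITGB6, NID1, COL4A4, COL4A1 and PXN, all lie below 0.

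The genes whose pattern was most like each member were read from Pearson's r of log2(CPM + 10). These are correlations across 37 sums of a class in a sample and across 27 sums of an epithelial sub-cluster in a sample, in which points share libraries, and they are given as a description with no p-value. Across classes, LAMA3 was followed most closely by CRTAC1 (r = 0.864), COL4A5 (0.812) and COL4A4 (0.783), the latter genes being chains of basement membrane collagen. Among the genes most like LAMB3 were MMP13 (0.857) and CLDN1 (0.852). ITGA2 was most like NEDD9 (0.79), SLC25A13 (0.733) and ENDOD1 (0.707), and ITGA6 most like ADAM10 (0.876), SASH1 (0.851) and CTTNBP2NL (0.851). ITGA3 was most like LAMA3 (0.86), DGKH (0.812) and PDLIM5 (0.794), and DST most like LIMA1 (0.914), CTNNB1 (0.909) and MYO6 (0.9).

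Within the epithelium, the gene most like LAMA3 was LAMB3 (r = 0.851), ahead of AQP8 (0.802) and KIT (0.794). LAMB3 itself was nearest to YWHAH (0.879), SGMS2 (0.875) and F3 (0.871), and ITGA2 to CTSV (0.858), PPP4R1 (0.83) and SGMS2 (0.808). ITGA6 was nearest to ATP6AP2 (0.894), CTSV (0.834) and PDIA3 (0.833), and DST to HACD3 (0.825), ACER3 (0.773) and ACTL6A (0.772). For ITGA3, with 66 UMIs in the whole epithelial-like class, KCTD12 (0.879), HSPA12A (0.873) and ERRFI1 (0.838) came first.

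In macrophage-like and T cell-like cells, for which no test was run, both injured samples were below both normal ones for ITGA2, ITGA6 and DST. LAMB3 in macrophage-like cells had this order as well, from only 9 and 8 UMIs in the injured and 3 and 2 in the normal samples. So did LAMA3 in macrophage-like and ITGA3 in T cell-like cells, each from 1 UMI per sample. The share of all genes with this order was not computed for these classes, so the order is not read as particular to these genes. Macrophage-like cells had 9.32 and 11 CPM of ITGA2 in Injury_1 and Injury_2 against 77.6 and 61.3 in Normal_1 and Normal_2, and 14.3 and 25.5 CPM of ITGA6 against 90.3 and 77.3. T cell-like cells had 39 and 38.8 CPM of ITGA2 against 84.6 and 101, and 38.3 and 60.6 CPM of ITGA6 against 260 and 158. The smaller T cell-like cluster, led by CORO1A, GZMH, KNL1, NDC80 and SMC2, stood out with 64.6 and 80.7 CPM of ITGA6 against 419 and 401. Its cells had a median of 10331 UMIs, against 3136 in the larger T cell-like cluster, and whether they were all T cells was not tested. The larger cluster had ITGA6 means of only 36.4 CPM in the injured and 57.2 in the normal samples. In glial-like cells ITGA6 had the reverse order, at 620 and 491 CPM in the injured and 282 in Normal_1, and Normal_2 had only 7 such cells. These differences were not tested, and in mast cell-like and neutrophil-like cells ITGA2 overlapped between the groups.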

How the data were processed

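Single cells of 2 injured and 2 normal rabbit bladder samples were analysed, grouped by the sample titles. The deposited values were raw UMI counts per gene and barcode, made by the authors with Cell Ranger 6.0.1 (file header); the submitters' notes also name Seurat. The genome build is not given in the sources used here, so no coordinates are printed.

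Barcodes under 500 UMIs or 200 genes, or over 15% mitochondrial UMIs, were removed. Scrublet (scanpy 1.11.5) scores were computed, no cell was removed for them, and an alternative left out the 5% of cells with the highest scores. As in the study, 2000 variable genes, CCA integration, 30 principal components and Louvain clustering at resolution 0.8 were used (Seurat 5.3.0). Clusters were named from marker lists, and epithelial-like cells were clustered again. UMI counts were summed per sample and class, given as CPM, and tested in edgeR 4.0.16 (filterByExpr, TMM, quasi-likelihood, Benjamini-Hochberg over all genes, 0.05) under R 4.3.3 for epithelial-like, fibroblast-like, endothelial-like and smooth muscle and pericyte-like cells. Glial-like cells were planned for a test and had under 20 cells in Normal_2; the immune classes were not tested. The script was tested on simulated data. DESeq2 1.42.0, other normalization, filters, clustering, cell limits and leaving out each sample were alternatives. The fits on sub-cluster 1, on cells with KRT5 and no uroplakin, and between classes were added after the data were seen.

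The members, marker lists and adhesion lists were chosen with earlier results of these data known. Named genes were the 6 members, their partners, genes of the adhesion lists that passed, and the 3 genes most like each member with at least 20 CPM in a class, of which 1 is not reported here; cluster leading genes and LAMB1, ITGAV, KRT5, DAG1 and the uroplakins were named in addition, after their values were seen.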

Additional observations from a re-analysis of the deposited data

Results flagged for a closer look

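In fits added after the data had been seen, the injury effect differed between classes in 6 cases, by edgeR with adjusted p-values over all genes. All 6 members were fitted in each pair of classes. Of all genes, 1.36% passed against fibroblast-like, 0.355% against endothelial-like and 1.81% against smooth muscle and pericyte-like cells. LAMB3 was low in each of these other classes and LAMA3 in endothelial-like cells, so those cases are a description. Epithelial-like minus fibroblast-like cells gave -3.03 on the log2 scale for LAMB3 (adjusted p of 0.0244 in edgeR). Epithelial-like minus endothelial-like cells gave -5.25 for LAMA3 (0.0325), -3.59 for LAMB3 (0.0499) and -2.51 for ITGA2 (0.0339). Epithelial-like minus smooth muscle and pericyte-like cells gave -4.41 for LAMA3 (0.0474) and -3.2 for LAMB3 (0.0282).

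In a further 10 cases both injured samples lay on 1 side of both normal samples in 1 set of cells and on the other side in another. These differences, in log2(CPM + 10), were not tested. For ITGA2 the effect in endothelial-like cells exceeded that in T cell-like cells by 1.7, in macrophage-like cells by 2.61 and in smooth muscle and pericyte-like cells by 1.5. Within the epithelium, the ITGA2 effect in sub-cluster 0 exceeded that in sub-cluster 1 by 2.93. In cells with uroplakin and no KRT5 it exceeded that in cells with KRT5 and no uroplakin by 1.7 and that in cells with neither by 1.3. The cells with uroplakin and no KRT5 held only 21 ITGA2 UMIs in Normal_1 and 10 in Normal_2. For ITGA6 the effect in sub-cluster 3 exceeded that in sub-cluster 1 by 1.35. For DST the effect in neutrophil-like cells exceeded that in T cell-like cells by 3.12, in epithelial-like cells by 1.79 and in macrophage-like cells by 1.76. The neutrophil-like cells held 80 DST UMIs in all, with 4 in Normal_1 and 0 in Normal_2. Their DST was at 21 CPM in Injury_1 and 19.3 in Normal_1, so the order rests on few UMIs.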

How the results depend on the processing

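In epithelial-like cells LAMA3 passed in 15 of 16 alternatives (log2 fold change -6.81 to -3.83), LAMB3 in 14 (-5.96 to -2.69) and ITGA2 in 11 (-2.65 to -1.61). For each of these genes the passes include the fit on sub-cluster 1. That sub-cluster was made with these genes, so its fit is a description and lends the counts no support. The largest changes are those of sub-cluster 1. The count of members called there was 0 without the sub-cluster with the highest KRT5, 1 in cells with KRT5 and no uroplakin, and 2 to 3 when a sample was left out. DST passed under DESeq2 only (adjusted p of 0.013). In smooth muscle and pericyte-like cells 1 member, ITGA6, passed without the low-count filter and with at most 10% mitochondrial UMIs, and 0 to 1 when a sample was left out. Against the other epithelial-like cells, the sub-cluster difference became 1.53 for LAMA3, 1.79 for LAMB3, 0.162 for ITGA3 and 0.768 for ITGA6 when clustered without the 6 genes, and 1.38, 1.62, 0.143 and 0.767 with the KRT5 and uroplakin split. With log2(CPM + 1) it was 2.93 for LAMA3, 2.86 for LAMB3 and 1.12 for ITGA3, at resolution 0.4 it was 0.24 for ITGA3 and 1.09 for ITGA6, and with at most 10% mitochondrial UMIs 1.09 for ITGA6. Clustering without the 6 genes, the KRT5 and uroplakin split and resolution 0.4 took in Normal_2, which the main values left out. Fold changes that did not pass turned in sign in some alternatives. Leaving out 1 sample gave -0.663 to 0.434 for ITGA2 (0.0703 without Injury_2) and -2.1 to 0.725 for LAMA3 in fibroblast-like cells. In endothelial-like cells it gave -0.046 to 0.718 for ITGA3 (-0.0385 without Normal_2), -0.203 to 0.182 for ITGA6 (0.0781 without Injury_1), -1.33 to 0.426 for LAMB3 (0.104 without Injury_2) and -0.269 to 1.15 for DST. In smooth muscle and pericyte-like cells it gave -0.715 to 0.626 for LAMA3 (0.0894 without Injury_1) and -0.311 to 0.58 for DST (-0.013 without Injury_2). Without integration ITGA2 in fibroblast-like cells was at 0.435, and in smooth muscle and pericyte-like cells LAMA3 was at 0.304 and DST at -0.0427; LAMA3 was at 0.132 there with at most 10% mitochondrial UMIs. The causes were not tested. Genes called in epithelial-like cells numbered 967 without the filter, 513 by DESeq2, 50, 53, 417 and 476 without Injury_1, Injury_2, Normal_1 and Normal_2, 50 with at most 10% mitochondrial UMIs and 264 in kept sub-clusters, against 117. Without the filter 548, 4 and 172 genes were called in fibroblast-like, endothelial-like and smooth muscle and pericyte-like cells. The samples share only a replicate number; with it as a replicate block 3 members passed in epithelial-like cells among 58 genes, 261, 3 and 61 genes were called in the other classes, and no member's call changed. The same-number correlations were 0.111, 0.231, 0.152 and 0.0719. No alternative was run for glial-like cells, which had too few cells in Normal_2.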

Other observations

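Values in small classes and clusters outside the comparisons are given without a test. LAMB3 in the neutrophil-like cluster of few UMIs, led by S100A8 and S100A12, was at 54.9 CPM in Injury_1, 77 in Injury_2 and 86.1 in Normal_2. ITGA2 in mast cell-like cells was at 81.3 and 104 CPM in the injured and at 91 and 167 in the normal samples, and the groups overlapped. DST in T cell-like cells was at 31.9 and 23.6 CPM in the injured and at 300 and 68.5 in the normal samples. The larger T cell-like cluster, of 962 cells, had DST means of 9.32 CPM in the injured and 11.4 in the normal samples. The smaller one, of 160 cells, had means of 60.6 and 368 CPM, so the class difference lay in the smaller cluster. That cluster was led by CORO1A, GZMH, KNL1, NDC80 and SMC2, and whether it held only T cells was not tested. ITGA6 in the macrophage-like cluster led by C1QA was at 15.8 and 36.9 CPM in the injured and at 143 and 142 in the normal samples.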
